A study of Homo sapiens with 6 samples.

Results

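Transcripts of 9 genes of the transient receptor potential (TRP) family of cation channels were examined in 6 human prostate cancer cell lines. The genes were chosen by name, and the choice was made with results of these data in view, because TRPM8 was lower in the castration-resistant line of all 3 pairs of lines. All 9 were found, each as 1 entry, among 42887 gene symbols. Of the 9, TRPM8, TRPM2, TRPM4, TRPM7 and TRPV6 averaged 1 scaled FPKM or more across the libraries and entered the tests over 16231 genes. TRPM3, TRPV1, TRPV2 and TRPC1 were under that minimum. FPKM is the fragment count scaled by gene length and library total, and scaled FPKM is that value divided by 1 factor per library.

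TRP channels are tetramers of subunits with a pore that passes cations, and most of them let calcium into the cell. TRPM8 opens on cooling and to menthol. It was first found as a prostate transcript, and its transcription in prostate epithelium is known to depend on androgen. TRPM4 passes sodium and potassium when calcium rises, TRPM7 carries a kinase on its channel and passes magnesium and zinc, TRPM2 opens to ADP-ribose during oxidative stress, and TRPV6 is a calcium-selective channel of absorbing epithelia that is also found in prostate cancer.

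The castration-sensitive lines are LnCaP, VCaP and LAPC4, and the castration-resistant line that carries the name of each is LnCaP-abl, VCaP-CR or LAPC4-CR. Per the labels, the medium of the sensitive lines held 10% fetal bovine serum (FBS) and was DMEM for VCaP and RPMI for LnCaP and LAPC4. All 3 resistant lines grew in RPMI whose 10% serum was charcoal-stripped, which removes steroids, with B27 supplement, and no line had any further treatment. State and medium therefore cannot be told apart in any pair. Each line had 1 library, so a difference within a pair has no replicate check, and nothing in the labels says how many cultures a library holds. Total counts ran from 8661337 in LnCaP to 22433655 in LAPC4-CR, and each resistant library was deeper than that of its parental line. The share of counts in protein-coding genes was also higher in each resistant library. It was 67.8% for LnCaP against 77.4% for LnCaP-abl, 62.8% for VCaP against 68.0% for VCaP-CR, and 68.3% for LAPC4 against 79.5% for LAPC4-CR. Its bearing on the TRP values was not tested. ERG, the fusion gene of VCaP, had 16.9 scaled FPKM there, 5.46 in its resistant line and at most 0.186 elsewhere. The luminal prostate markers KRT8, KRT18, KRT19, HOXB13, EPCAM and CDH1 were at 1 scaled FPKM or more in every library. Of the 4 sensory neuron markers, whose cells are the classic site of TRPV1 and TRPM8, 0 reached 1 scaled FPKM in any library. At most 2 of 4 basal, 1 of 5 stromal and 1 of 3 leukocyte markers did so, and the 4 neuroendocrine markers did so in both VCaP libraries.

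The promoters of TRPM8 and of KLK3, which encodes prostate-specific antigen and is a textbook androgen-induced gene, are shown because both transcripts were lower in the resistant line of every pair. Each is the 250 bases before the most 5′ start listed in RefSeq on GRCh38.p14, plus strand, at chr2:233917123-233917372 for TRPM8 and chr19:50854665-50854914 for KLK3. Capitals mark matches on either strand to AGAACA, a part of the response element of steroid hormones (TGTTCT on the other strand), and to TATAAA, the core of a TATA box (TTTATA on the other strand).
TRPM8: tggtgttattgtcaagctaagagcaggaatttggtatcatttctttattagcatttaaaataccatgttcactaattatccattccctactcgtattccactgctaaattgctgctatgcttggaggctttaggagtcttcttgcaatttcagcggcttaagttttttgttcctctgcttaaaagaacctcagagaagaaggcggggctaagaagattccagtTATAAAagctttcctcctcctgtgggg
KLK3: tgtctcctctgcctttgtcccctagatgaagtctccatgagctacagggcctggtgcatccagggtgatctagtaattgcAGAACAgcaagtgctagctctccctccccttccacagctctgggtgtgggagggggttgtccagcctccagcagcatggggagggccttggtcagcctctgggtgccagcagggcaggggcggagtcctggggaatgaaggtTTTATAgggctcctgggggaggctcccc
With positions counted back from the start as -1, TATAAA began at -27 in TRPM8 and its reverse complement at -28 in KLK3, and AGAACA began at -170 in KLK3. The TRPM8 window held no AGAACA. RefSeq lists 6 starts for TRPM8, and 1 of these, the most 3′, had AGAACA. Over the 8 members with a listed promoter, 4 of 18 starts had AGAACA and 1 had TATAAA. Of all 35116 windows of this length, 12.4% held AGAACA and 10.7% TATAAA. These are matches of letters, with no measure of binding in these data.

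TRPM8 (ENSG00000144481, chromosome 2, 234490782 to 234592905 in the files' coordinates, hg18 per the submitters' processing notes) had the widest range of the 9 genes, 92.6-fold between its highest and lowest library. Its count was 118 for LnCaP against 27 for LnCaP-abl, 2068 for VCaP against 459 for VCaP-CR, and 255 for LAPC4 against 106 for LAPC4-CR. As scaled FPKM these were 1.61 and 0.289, 26.7 and 3.62, and 2.50 and 0.539. VCaP stood far above every other library, and the resistant line was the lower one in each pair although its library was deeper. In bulk RNA, fewer cells with a transcript and less of it per cell cannot be told apart. VCaP-CR nonetheless held more TRPM8 per length than LnCaP or LAPC4. The order was VCaP, VCaP-CR, LAPC4, LnCaP, LAPC4-CR and LnCaP-abl, and no 2 neighbours in that order had overlapping 95% Poisson intervals, which cover counting error only.

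**Figure D1:**
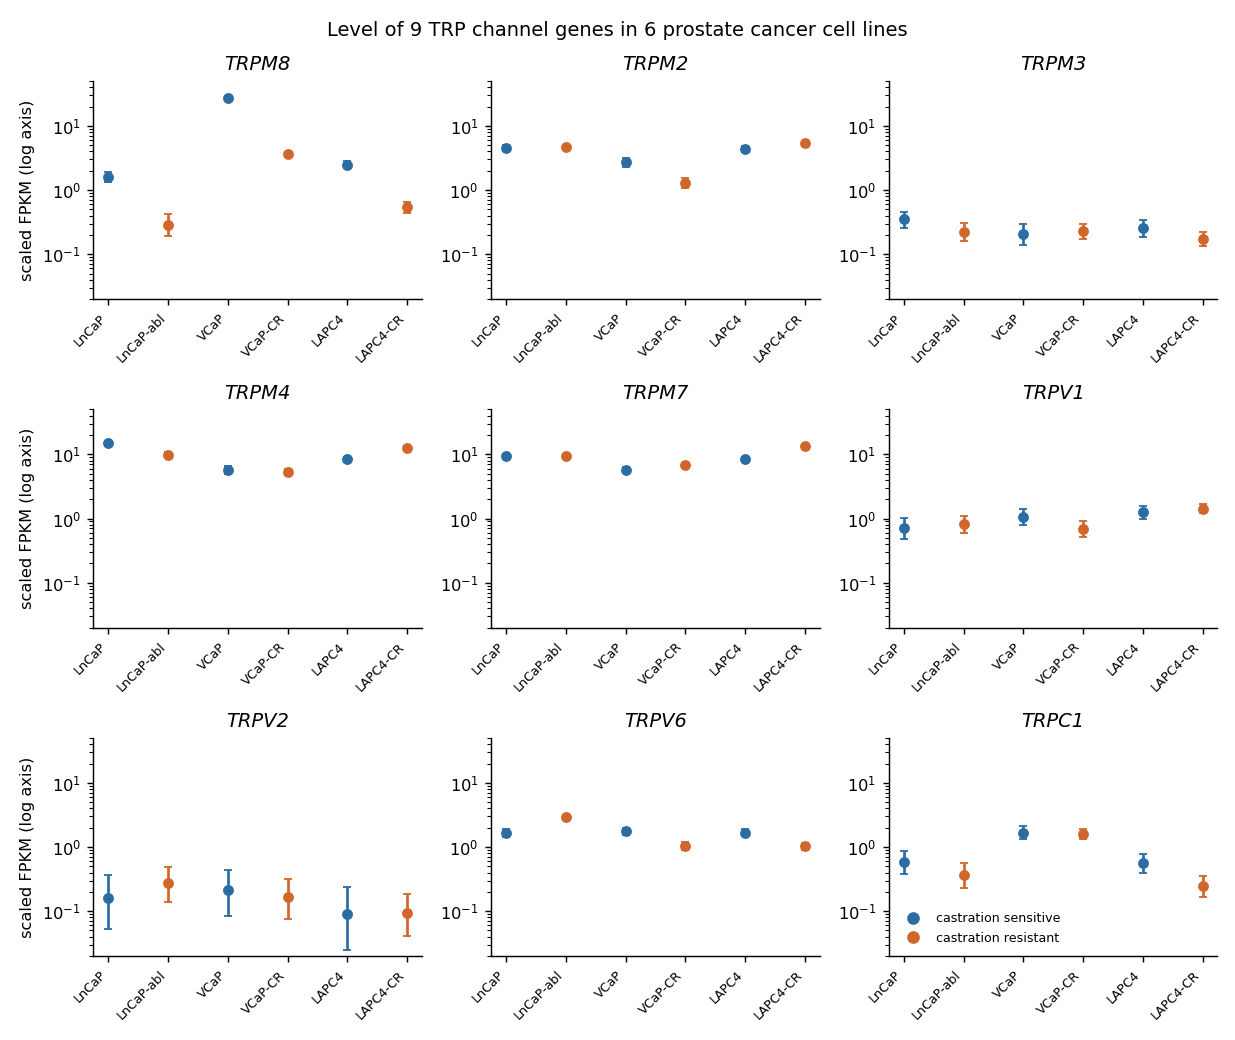
Scaled FPKM (log axis) of the 9 TRP genes in each line, 1 library per point, blue for castration sensitive and orange for castration resistant, with exact 95% Poisson intervals. TRPM8 ran from 0.289 in LnCaP-abl to 26.7 in VCaP, while TRPM7 stayed between 5.76 and 13.3.

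TRPM8 was 5.58-fold lower in LnCaP-abl than in LnCaP (95% interval 3.65 to 8.82, exact binomial on the 2 counts), 7.39-fold lower in VCaP-CR than in VCaP (6.67 to 8.19) and 4.63-fold lower in LAPC4-CR than in LAPC4 (3.68 to 5.87). On the log2(scaled FPKM + 1) scale, which understates changes at low levels, the changes were -1.02, -2.59 and -1.18. A change that low or lower was seen for 5.98%, 0.123% and 3.6% of tested genes in these pairs. Since TRPM8 was chosen for this pattern, these values are a description with no test. On that scale 16 of 16231 genes (0.0986%) were at least 2-fold lower in all 3 pairs, TRPM8 among them. A pseudocount of 5 in place of 1 gave -0.32, -1.88 and -0.44, so that TRPM8 passed 2-fold in the VCaP pair only.

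Whether TRPM8 differed between the LnCaP, VCaP and LAPC4 lineages was not part of the choice and was tested, with castration state in the model and the sensitive and resistant libraries of a lineage as its 2 libraries. These 2 are a line and the resistant line that carries its name, so they are not independent replicates of a lineage. VCaP was also the only line in DMEM, so line and medium cannot be told apart for that library. By edgeR's quasi-likelihood test, TRPM8 differed between parental lines with an adjusted p of 0.00328, as did 12.7% of tested genes. The log2 difference was 3.88 ± 0.35 (SE) for VCaP minus LnCaP (edgeR adjusted p 0.00598, 5.98% of genes called) and 3.08 ± 0.33 for VCaP minus LAPC4 (edgeR adjusted p 0.00542, 12.6% of genes called). LAPC4 minus LnCaP was 0.79 ± 0.33 (edgeR adjusted p 0.242, 3.11% of genes called). Both VCaP libraries were thus above all 4 others, and the mean of those 4 was 1.23 scaled FPKM. With state left out of the model the edgeR adjusted p was 0.0791, and 13 of 14 alternatives stayed under 0.05. The 4 neuroendocrine markers summed to 10.8 scaled FPKM for VCaP and 28.3 for VCaP-CR, against at most 13.0 (LnCaP-abl) elsewhere. They did not move together. From VCaP to VCaP-CR, CHGA went up from 2.37 to 21.6 and SYP from 1.41 to 2.53. ENO2 went down from 3.46 to 2.81 and INSM1 from 3.51 to 1.35. In LnCaP-abl, ENO2 alone had 12.0. The part of these markers in the TRPM8 level was not tested.

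**Figure D2:**
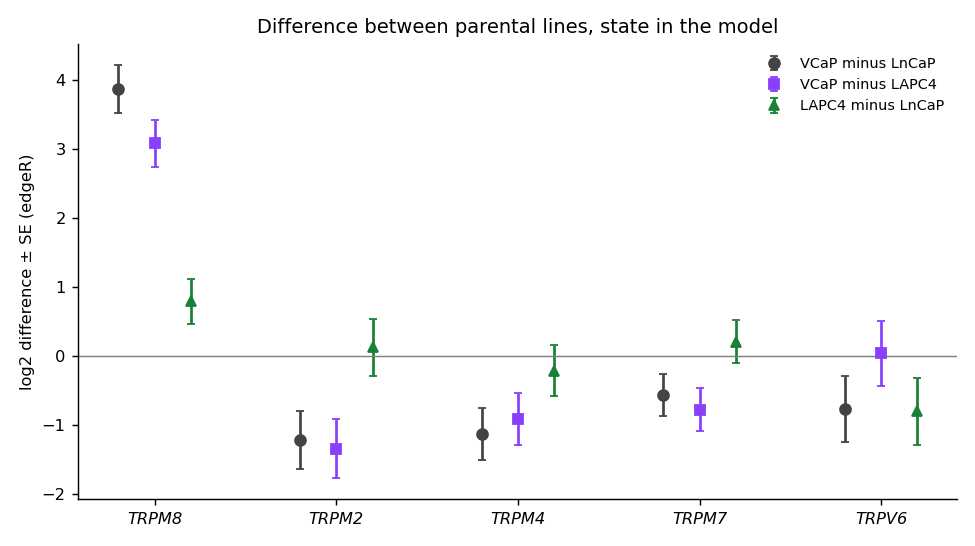
Log2 differences between parental lines ± SE for the 5 tested TRP genes (edgeR, state in the model, 6 libraries). Only the VCaP contrasts of TRPM8, at 3.88 and 3.08, had an adjusted p under 0.05.

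Genes known to respond to androgen were set beside TRPM8. KLK3 was lower in the resistant line of each pair, with log2 changes of -8.53 for LnCaP, -4.03 for VCaP and -5.18 for LAPC4. KLK2, the neighbouring androgen-regulated kallikrein, had -5.19 in the first pair and -4.46 in the last and went from 1254 to 628 scaled FPKM in the VCaP pair, and FKBP5, a chaperone of steroid receptors, -1.78, -0.33 and -1.34. In the VCaP pair TMPRSS2, an androgen-induced protease, was higher by 0.40 where TRPM8 had -2.59. In the LnCaP and LAPC4 pairs TMPRSS2 had -1.80 and -5.14. Whether the changes of TRPM8 and of these genes share a cause was not tested.

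Of 24 genes of an androgen response list, 22 were tested and 13 of these were lower by any amount in all 3 pairs, against 16.7% of all tested genes. The median change of the list was -1.55, -0.33 and -1.45 for the LnCaP, VCaP and LAPC4 pairs, against -0.01, -0.01 and -0.02 over all tested genes. At least 2-fold lower on the log2(scaled FPKM + 1) scale were 16, 3 and 15 of its 22 genes. The share over all tested genes was 6.19%, 2.03% and 5.28%. On that scale KLK3 and PMEPA1, an androgen-induced membrane protein, were the list's genes at least 2-fold lower in every pair. By the ratio of scaled FPKM, MAF of this list also was, at 8.49-fold (LnCaP), 2.10-fold (VCaP) and 4.80-fold (LAPC4) lower. PMEPA1 had changes of -3.82, -1.18 and -1.56.

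**Figure D3:**
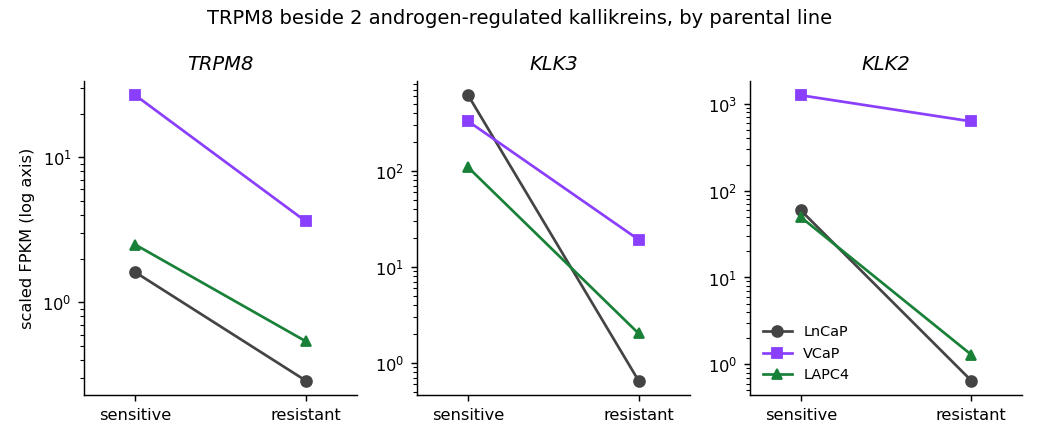
Scaled FPKM (log axes, a separate range in each panel) of TRPM8, KLK3 and KLK2 in the sensitive and resistant library of each parental line, 1 library per point. TRPM8 and both kallikreins were lower in all 3 resistant libraries.

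The 5 protein-coding genes whose log2(scaled FPKM + 1) followed TRPM8 most closely over the 6 libraries, by Pearson's r among 11340 genes, were WDR74, APOC1, ACOX2, FAM57A and CYP4F8. The r of WDR74 was 0.989 and that of CYP4F8 0.973, and 29 genes had an r of at least 0.95. The 6 libraries are 3 related pairs, and VCaP alone holds much of the spread, so these values describe the libraries and carry no p. WDR74, a ribosome assembly factor, had 94.0 scaled FPKM for VCaP, 40.5 for VCaP-CR and between 18.3 and 32.4 in the others. CYP4F8, a cytochrome P450 of seminal vesicles, had 51.8 for VCaP, 3.06 for VCaP-CR, 3.37 for LAPC4 and at most 0.242 in the others. Only 2 of these 5 genes stayed among the closest by Spearman's rho, and 2 with a pseudocount of 0.25.

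The tested protein-coding genes nearest to TRPM8 on chromosome 2 did not share its pattern. HJURP, a centromere histone chaperone 62.8 kb before TRPM8, lay between 10.5 and 14.2 scaled FPKM in the 6 libraries, and USP40, a ubiquitin protease 342 kb before it, between 3.60 and 7.28. Neither differed between parental lines past the threshold (edgeR adjusted p 0.626 and 0.524). On the other side SH3BP4, 932 kb away, was highest in LAPC4-CR at 15.1 and lowest in VCaP at 2.22 (edgeR adjusted p 0.0254). The overlapping transcript AC005538.5 had 0 to 8 counts in a library.

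TRPM4 and TRPM7 were the most abundant of the 9 genes per length in every library but VCaP, where TRPM8 led. TRPM4 (ENSG00000130529, chromosome 19, 54352864 to 54406903) had 14.8 scaled FPKM for LnCaP against 9.83 for LnCaP-abl, 5.73 for VCaP against 5.40 for VCaP-CR, and 8.39 for LAPC4 against 12.4 for LAPC4-CR. Its pairs went different ways: the resistant line was 1.51-fold lower in the LnCaP pair (95% interval 1.33 to 1.71) and 1.48 times as high in the LAPC4 pair (1.33 to 1.65). In the VCaP pair the ratio of 0.943 had an interval that included 1 (0.796 to 1.12). The 2 VCaP libraries were the lowest, with log2 differences of -1.13 ± 0.37 (SE) from LnCaP and -0.92 ± 0.37 from LAPC4, and the difference between lines had an edgeR adjusted p of 0.149.

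TRPM7 (ENSG00000092439, chromosome 15, 48636643 to 48766304) had 9.37 scaled FPKM for LnCaP against 9.30 for LnCaP-abl, 5.76 for VCaP against 6.79 for VCaP-CR, and 8.45 for LAPC4 against 13.3 for LAPC4-CR. LAPC4-CR was 1.57 times as high as LAPC4 (95% interval 1.47 to 1.69) and VCaP-CR 1.18 times as high as VCaP (1.07 to 1.31), on 586 to 3443 counts a library. In the LnCaP pair the ratio of 0.992 had an interval of 0.908 to 1.08. The 2 VCaP libraries were again the lowest, and the difference between parental lines had an edgeR adjusted p of 0.224.

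TRPM2 (ENSG00000142185, chromosome 21, 44594474 to 44687392) lay between 4.38 and 5.36 scaled FPKM in the 4 LnCaP and LAPC4 libraries, at 2.70 in VCaP and at 1.30 in VCaP-CR. Counts ran from 140 in VCaP-CR to 894 in LAPC4-CR. VCaP-CR was 2.07-fold lower than VCaP (95% interval 1.65 to 2.61), LAPC4-CR was 1.22 times as high as LAPC4 (1.08 to 1.38), and the ratio in the LnCaP pair was 1.02 (0.874 to 1.20). The VCaP libraries were thus the 2 lowest for TRPM2, TRPM4 and TRPM7 and the 2 highest for TRPM8. For TRPM2 the difference between lines had an edgeR adjusted p of 0.128, so of the 5 tested members only TRPM8 passed the threshold. AP001065.2, a lincRNA that overlaps TRPM2, had 14 to 58 counts, at most 15.8% of the TRPM2 count. How reads in such overlaps were counted is not given in the sources used here.

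TRPV6 (ENSG00000165125, chromosome 7, 142279078 to 142293629) had 1.67 scaled FPKM for LnCaP, 1.75 for VCaP and 1.67 for LAPC4, 3 values whose counting intervals overlapped. The resistant lines spread apart, with LnCaP-abl up at 2.91 and the other two down at 1.03 (VCaP-CR) and 1.02 (LAPC4-CR). LnCaP-abl was 1.74 times as high as LnCaP (95% interval 1.46 to 2.09), VCaP-CR 1.71-fold lower than VCaP (1.40 to 2.09) and LAPC4-CR 1.64-fold lower than LAPC4 (1.38 to 1.94). Counts were 184 to 410 a library. The difference between parental lines had an edgeR adjusted p of 0.373. The deposited length of TRPV6 is 11917 nt in a span of 14.6 kb, nearly the whole locus, and a shorter length would give a higher FPKM.

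TRPV1, a channel of noxious heat, and TRPV2 were low in all lines. TRPV1 (ENSG00000196689, chromosome 17, 3415493 to 3447141) had 0.710 scaled FPKM for LnCaP against 0.817 for LnCaP-abl, 1.05 for VCaP against 0.692 for VCaP-CR, and 1.24 for LAPC4 against 1.43 for LAPC4-CR. No 2 neighbours in that order of levels had separate counting intervals, and VCaP-CR was 1.52-fold lower than VCaP (95% interval 1.01 to 2.27). TRPV1 was the member just under the minimum for testing, with a mean of 0.990. TRPV2 (ENSG00000187688, chromosome 17, 16259613 to 16281042) had 4 to 11 counts in a library, and every pair's interval included 1. A difference in TRPV2 was not detectable at this depth.

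TRPC1 (ENSG00000144935, chromosome 3, 143925606 to 144009420), a subunit linked to store-operated calcium entry, set the VCaP lineage apart in the same direction as TRPM8. Its scaled FPKM was 1.67 for VCaP and 1.62 for VCaP-CR, against 0.589 for LnCaP, 0.372 for LnCaP-abl, 0.569 for LAPC4 and 0.245 for LAPC4-CR. Its mean of 0.845 kept it out of the main fit. With other filters it entered the fit, and it differed between parental lines with an edgeR adjusted p of 0.00413 without a filter and 0.0373 with filterByExpr. Those fits called 4900 and 2397 genes between parental lines, against 2065 in the fit that left TRPC1 out. LAPC4-CR was 2.32-fold lower than LAPC4 (95% interval 1.38 to 3.94, 35 and 29 counts), while the LnCaP and VCaP ratios of 0.632 and 0.969 had intervals that included 1. The log2 change was below 0 in all 3 pairs, but in the VCaP pair it was -0.03, and 0.02 without a factor per library.

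TRPM3 (ENSG00000083067, chromosome 9, 72339769 to 73251640), a channel opened by pregnenolone sulfate, lay between 0.175 and 0.348 scaled FPKM on 31 to 66 counts. The counting intervals of each pair of neighbours in its order overlapped. LnCaP-abl was 1.56-fold lower than LnCaP (95% interval 1.01 to 2.44). Its locus of 912 kb also holds AL358786.1, a small RNA pseudogene with 23 to 95 counts, and another pseudogene with 17 to 65, so counts of TRPM3 are uncertain.

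**Figure D4:**
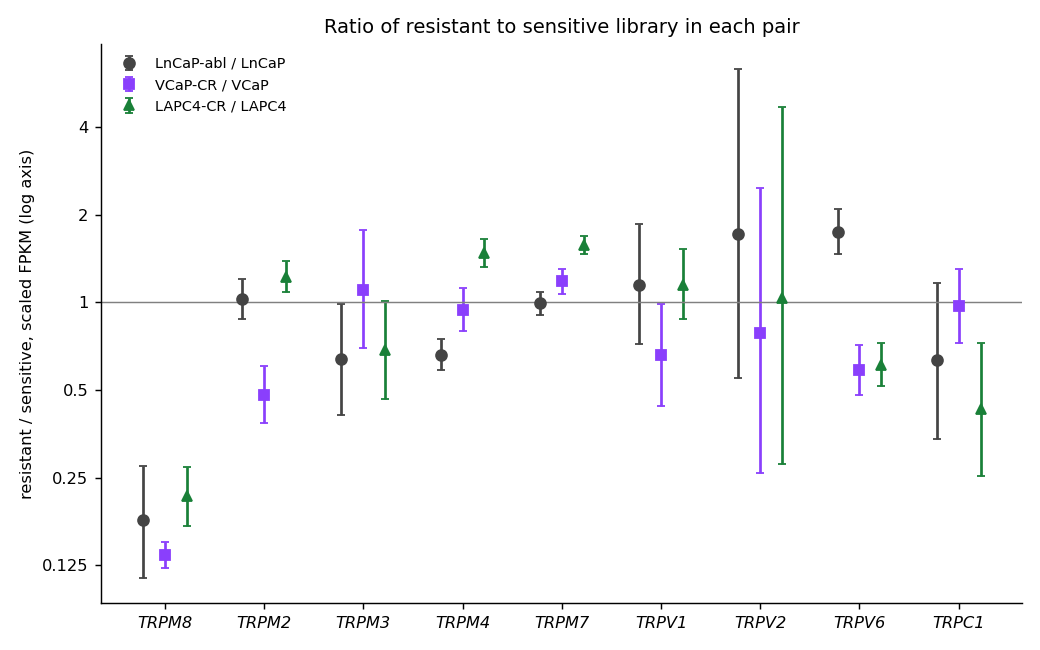
Ratio of resistant to sensitive library in scaled FPKM (log axis) for each TRP gene and pair, with exact binomial 95% intervals that cover counting error only. The 3 TRPM8 ratios lie between 0.135 and 0.216, and those of TRPM4 and TRPV6 lie on both sides of 1.

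Across the 3 pairs with the parental line as a block, edgeR called 0 of 16231 genes (0%) higher and 0 (0%) lower in the resistant lines at an adjusted p under 5%, and 728 (4.49%) and 548 (3.38%) had an unadjusted p under 0.05. DESeq2 called 82 higher and 55 lower, and edgeR without a filter 95 and 58. The edgeR log2 change was 0.31 ± 0.25 (SE) for TRPM7 (adjusted p 0.780), -0.03 ± 0.30 for TRPM4 (0.990), -0.22 ± 0.34 for TRPM2 (0.891) and -0.22 ± 0.39 for TRPV6 (0.903). For TRPM4, TRPM2 and TRPV6 the sign depended on the pairs that entered, and for TRPM4 also on the genes that entered. For TRPM8 it was -2.52, given without a test. At least 2-fold lower on the log2(scaled FPKM + 1) scale was 1 of the 9 members in each pair, TRPM8, and 0 were at least 2-fold higher. The share of all tested genes that low was 6.19%, 2.03% and 5.28% for the LnCaP, VCaP and LAPC4 pairs, and TRPM8 was chosen for being low, so nothing is read from its count. The share that high was 6.23%, 2.37% and 5.22%, and 0.0616% were that high in all 3. Lower by any amount were 3 of the 5 tested members in LnCaP-abl (50.9% of all tested genes), 4 in VCaP-CR (51.4%) and 2 in LAPC4-CR (51.7%). TRPM8, chosen for being lower, is among them in each pair, and nothing is read from these counts of 5 genes. TRPM7, among the 3 in LnCaP-abl, was at -0.01 there, and 0.01 without a factor per library.

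Summed over 27 TRP channel genes, the 9 members and 18 others, scaled FPKM was 48.0 for LnCaP against 44.8 for LnCaP-abl, 58.6 for VCaP against 33.7 for VCaP-CR, and 45.4 for LAPC4 against 49.4 for LAPC4-CR. TRPM8 made up 45.6% of that sum in VCaP and 10.7% in VCaP-CR. Its share was 3.36% for LnCaP against 0.645% for LnCaP-abl and 5.51% for LAPC4 against 1.09% for LAPC4-CR. With TRPM8 left out, the other 8 members summed to 19.1 in VCaP and 17.2 in VCaP-CR, the 2 lowest values, and to 34.0 in LAPC4-CR, the highest. The high total of VCaP was thus a TRPM8 total, and TRPM4 and TRPM7 together made up the larger part of the members elsewhere.

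**Figure D5:**
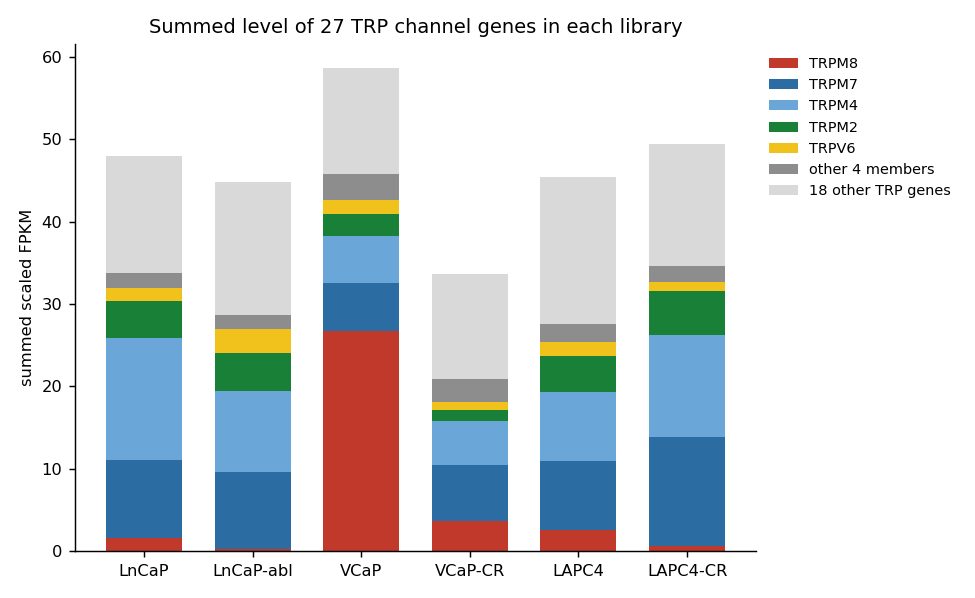
Summed scaled FPKM of 27 TRP channel genes in each library, stacked by gene, with the 4 lowest members and the 18 other genes pooled. TRPM8 (red) fills 45.6% of the VCaP bar and at most 10.7% of any other.

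Of the 18 other TRP genes, PKD2, a polycystin of cilia and the endoplasmic reticulum, and MCOLN1 and MCOLN2, channels of lysosomes, were tested. None of the 3 passed the test between states (edgeR adjusted p 0.782, 0.988 and 0.962). MCOLN1 differed between parental lines (edgeR adjusted p 0.0306), highest in the LAPC4 lineage (8.93 and 7.47 scaled FPKM), then LnCaP (4.07 and 5.44), then VCaP (1.80 and 1.47). PKD2 had log2 changes of 0.17, 0.38 and 0.19 in the 3 pairs. MCOLN2 had the largest change of the list in each pair, at -0.47, -0.64 and 0.71.

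Genes that act with TRP channels were described from lists of store-operated calcium entry, phospholipase C and IP3 receptors, PIP2 synthesis, calcium pumps and buffers, and TRP-binding proteins. In each of these 5 lists 0 tested genes passed the edgeR test between states. On the log2(scaled FPKM + 1) scale, 0 were at least 2-fold changed the same way in all 3 pairs. ITPR2, an IP3 receptor that releases calcium from the endoplasmic reticulum, came nearest, with changes of 0.94, 0.97 and 1.20 on that scale. By the ratio of scaled FPKM, ITPR2 was over 2-fold higher in each pair, at 2.78 (LnCaP), 2.90 (VCaP) and 3.17 (LAPC4). S100A10 and ANXA2 form the complex that carries TRPV6 to the plasma membrane. S100A10 had changes of 3.11, -0.38 and 2.35, and ANXA2 0.26, 1.98 and 1.69. HOMER2, a scaffold protein, had 37.0 scaled FPKM for LAPC4 against 0.812 for LAPC4-CR, 26.9 for LnCaP against 9.48 for LnCaP-abl, and 81.5 for VCaP against 78.1 for VCaP-CR. Among pumps and buffers, ATP2B1, a plasma membrane calcium pump, had 1.91 in the LnCaP pair, CALR, a calcium-binding chaperone, 1.29 in the VCaP pair, and ATP2A3, a reticulum calcium pump, 1.76 in the LAPC4 pair. GNAQ, a G protein subunit that activates phospholipase C, had -1.35 in the LnCaP pair. In store-operated entry and PIP2 synthesis the largest changes were 0.63 (ORAI3, a calcium channel) and 0.58 (PI4KB, a lipid kinase) in the LnCaP pair, -0.30 (ORAI2) and -0.57 (PI4K2A) in the VCaP pair, then 0.63 (STIM2, a calcium sensor) and 0.81 (PI4KA) in the LAPC4 pair.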

How the data were processed

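RNA was measured in 6 cell lines, 1 library each. RNeasy columns gave the total RNA, and the SOLiD Total RNA-Seq kit the libraries, per the labels' protocols. HTSeq and hg18 are named in the submitters' processing notes. For the aligner, the annotation and the strand setting, nothing is given in the sources used here. The deposited tables list 51698 entries with whole-number counts and FPKM. The deposited FPKM could be rebuilt from count, length and total within 1% for 100% of values of at least 0.05.

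From these, entries of small RNA classes and their pseudogenes (8763) were left out by deposited class, a step the fixed design does not name, and entries sharing a symbol were summed. FPKM was divided by a factor per library (median ratio over 11600 genes, 0.847 to 1.11). Deposited starts, counted from 0, have 1 added. Genes averaging 1 scaled FPKM or more (16231, of which 11341 are protein-coding) entered a test of the deposited counts in edgeR 4.0.16 (R 4.3.3, quasi-likelihood, TMM, Benjamini-Hochberg, threshold 5%), with parental line and state in 1 model. The model has 2 residual degrees of freedom. SE is the log2 difference divided by the root of its F value. The scripts were tested on simulated data. The plan assumed counts and needed no other test. Parent and resistant library share a line name, and their deviations from the group means correlated across genes, at 0.46 for LnCaP, 0.73 for VCaP and 0.59 for LAPC4. Intervals are 95% and exact. p-values measure the spread between these libraries, which may be technical.

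The members and lists were chosen with earlier results of these data known. Named were all members, list genes at least 2-fold changed the same way in all pairs or with the largest change in a pair, KLK3, KLK2, TMPRSS2, FKBP5, ERG, the 5 protein-coding genes most like TRPM8, and genes overlapping a member. Some genes that the rule names are not reported here. MAF, TRPV3 and the neighbours of TRPM8 were named after their values were seen. Alternatives were other size factors, filters, DESeq2 1.42.0, limma 3.58.1, left-out libraries, pseudocounts and scalings.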

Additional observations from a re-analysis of the deposited data

Results flagged for a closer look

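Of the 9 TRP genes, 3 moved in opposite directions in different pairs by more than counting error. The difference between pairs was not tested, since each pair has 1 library per state. For TRPV6 the log2 change of LnCaP-abl from LnCaP exceeded that of VCaP-CR from VCaP by 0.99 and that of LAPC4-CR from LAPC4 by 0.95, with the higher value in LnCaP-abl. For TRPM4 the LnCaP change minus the LAPC4 change was -1.06, with the lower value in LnCaP-abl and the higher in LAPC4-CR. For TRPM2 the VCaP change minus the LAPC4 change was -0.93, with the lower value in VCaP-CR.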

How the results depend on the processing

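Between states edgeR called 0 genes in each direction. With no filter on low values it called 95 higher and 58 lower, and DESeq2 82 and 55. With 1 pair left out, 0 to 13 were higher and 1 to 20 lower. Without the replicate block edgeR again called 0 and 0, and the pairing changed no other call. Between parental lines, 2065 genes were called by edgeR, 4900 without a filter, 3973 in DESeq2 and 1294 among protein-coding genes. Leaving out 1 library gave 979 (without VCaP-CR) to 3589 (without LnCaP), with 1277 without VCaP. The cause was not tested. TRPM8 kept an adjusted p under 0.05 between lines in 13 of 14 alternatives, and of all 70 member values for this test 69 kept their side of the threshold. The log2 change of TRPM4 between states, -0.03, was 0.14 without a filter, 0.052 with filterByExpr, 0.034 with small RNA classes kept in (an alternative added after the data were seen), and -0.33 to 0.26 with a pair left out. With a pair left out, TRPM2 ranged from -0.49 to 0.19 and TRPV6 from -0.72 to 0.073. With a pseudocount of 5, 0 members were at least 2-fold lower in LnCaP-abl and 0 in LAPC4-CR, against 1 in each. Of 108 member changes in a pair, 98 moved by less than counting error, and 0 that exceeded counting error changed sign. For TRPM8 they ran from -2.80 to -0.32. Counts of 4 to 11 limit TRPV2, and 21 to 35 limit TRPC1 outside VCaP.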

Other observations

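TRPV3, of the 18 other TRP genes, was under the minimum for testing but stood out in 1 library. It was singled out after its values were seen, and with 1 library per line there is no test. TRPV3, a warmth-gated channel of keratinocytes that lies beside TRPV1 on chromosome 17, had 17 counts for LnCaP and 166 for LnCaP-abl. It was 7.65 times as high in LnCaP-abl (95% interval 4.63 to 13.4, counting error only), at 2.23 against 0.292 scaled FPKM, and at most 0.160 in the VCaP and LAPC4 lineages. TRPV1, its neighbour, had a ratio of 1.15 in the same pair (0.719 to 1.86).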
